A study of Mus musculus with 2 samples.

Results

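Pseudogene transcripts are described here as they appear in long-read RNA sequencing of mouse brain cortex. The members are all transcript models, counted in either library, of genes whose annotated type carries the word pseudogene in the deposited models. The rule gave 1159 models of 205193 in the series, 816 in replicate 1 and 715 in replicate 2, and 372 of them were counted in both. They belonged to 743 of 13525 annotated pseudogenes (5.49%). The study holds 1 group of 2 libraries, made from 2 µg of total RNA each from the left cerebral cortex of female B6CASTF1/J mice, an F1 hybrid strain, aged 14 days. The labels leave it unclear whether replicate 1 pooled 3 females, name 1 female for replicate 2, and give both the same donor entry. With no second condition, the comparisons are between types of pseudogene, between pseudogenes and their closest coding gene, and between the libraries, where a test weighs counting error alone.

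A pseudogene is a genomic copy or remnant of a gene that has lost the ability to make the original protein. Processed pseudogenes arise when a spliced messenger RNA is copied into DNA and inserted elsewhere, so they usually lack introns, and most derive from genes expressed strongly in the germ line, such as those of ribosomal proteins and glycolytic enzymes. Unprocessed pseudogenes arise by duplication of genomic DNA and often keep introns, unitary pseudogenes are genes that were disabled in place with no intact copy left, and the annotators add the word transcribed where they saw evidence of transcription at the locus.

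Each member was set beside its closest protein-coding transcript, since the length and number of differences between a copy and its coding gene limit how well a read can be told apart. The runs below, from the GENCODE M21 transcript sequences on GRCm38 (mm10), are stretches of 60 bases aligned to the coding part of the closest coding gene, 5′ to 3′, and capitals mark the bases that differ between the runs of a pair. Each stretch was picked to hold the most differences within a set limit, so its count is not the rate over the whole alignment. Gm15459 is the most abundant member, and its window lies on the minus strand of chr5:5783437-5783496.
Gm15459: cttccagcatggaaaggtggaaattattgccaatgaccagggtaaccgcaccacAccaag
Hspa8: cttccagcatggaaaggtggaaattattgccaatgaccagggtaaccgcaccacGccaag
Gm12671 and Gm12033 are the most abundant copies of Gapdh, at chr4:91852610-91852669 and chr11:20335505-20335564 on the minus strand. The first has no difference from Gapdh over its whole annotated length and the second has 1.
Gm12671: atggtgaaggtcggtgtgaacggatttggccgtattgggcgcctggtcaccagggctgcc
Gm12033: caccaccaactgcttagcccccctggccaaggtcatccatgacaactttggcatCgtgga
Gapdh, window of Gm12033: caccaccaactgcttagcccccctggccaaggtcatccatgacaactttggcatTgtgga
Gm10774 differed most between the libraries, and its window is on the minus strand of chr2:126709471-126709530.
Gm10774: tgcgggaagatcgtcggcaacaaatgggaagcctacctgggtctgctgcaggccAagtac
Polr2l: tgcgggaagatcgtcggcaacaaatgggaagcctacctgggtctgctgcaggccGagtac
Gm10925, on the minus strand of chr1:24614592-24614651, is a nuclear copy of a mitochondrial gene and is identical to it throughout.
Gm10925: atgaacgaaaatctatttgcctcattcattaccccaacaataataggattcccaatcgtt
The duplicated members carry more differences. Over their whole alignments, 2610005L07Rik had 35 mismatches in 906 bases, Gm21811 had 38 in 908 and Ube2d-ps had 108 in 442. 2610005L07Rik (minus strand, chr8:20410403-20410462) and Gm21811 (plus strand, chr8:20136558-20136617) share the letters of this window and both differ from Cdh11 at 4 bases.
2610005L07Rik: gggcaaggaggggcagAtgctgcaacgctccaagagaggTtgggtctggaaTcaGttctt
Gm21811: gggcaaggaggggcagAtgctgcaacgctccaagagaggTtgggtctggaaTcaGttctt
Cdh11: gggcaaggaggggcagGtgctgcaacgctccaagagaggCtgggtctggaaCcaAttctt
Ube2d-ps, across a splice junction between chr11:5782238 and chr11:5783910 on the plus strand, differs from Ube2d3 at 17 of the 60 bases.
Ube2d-ps: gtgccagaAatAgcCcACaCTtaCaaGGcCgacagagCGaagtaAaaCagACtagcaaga
Ube2d3: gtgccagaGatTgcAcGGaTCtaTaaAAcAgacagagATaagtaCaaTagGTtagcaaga

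Replicate 1 held 1072344 mouse reads and replicate 2 held 753520, so scaled to 1000000 mouse reads per library (RPM) 1 read stood for 0.933 and 1.33, and a pseudogene with no read could have been present at up to 2.80 and 3.98 RPM (3 reads). A long read covers a transcript as 1 piece whatever its length, so RPM were not divided by length. Cortex markers were present, with 1334 and 839 reads of Slc17a7, a vesicular glutamate transporter of excitatory neurons, and none of the cerebellar markers Pcp2 and Cbln3. Mbp, a myelin protein gene, had 3939 and 1614 reads, and Ttr, a marker of choroid plexus, had 27 and 193. The part of these markers in the differences below was not tested, and in bulk tissue fewer cells of a type and less RNA per cell cannot be told apart.

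Pseudogenes took about 1 in 100 mouse reads, and few loci held most of them. Replicate 1 had 10575 pseudogene reads, or 0.986% (0.968 to 1.01, 95% Wilson interval), and replicate 2 had 7124, or 0.945% (0.924 to 0.968). The share was lower in replicate 2 by 0.041 percentage points (two-sided Fisher exact test, p = 0.00575, Benjamini-Hochberg adjusted over 3 shares p = 0.0172). With annotated models alone the order turned (1.376% and 1.382%, adjusted p = 0.774), and without Gm15459 the call was lost (0.771% and 0.745%, adjusted p = 0.0699). The order also turned, to 0.148% and 0.160%, without pseudogenes of 99% or more identity to a coding gene; this and leaving out Gm15459 were chosen after seeing the data. Intervals cover counting error only, since the reads carry no correction for copies made in amplification. Of the 743 pseudogenes, 577 had a read in replicate 1, 527 in replicate 2 and 361 in both, 303 had a single read in all, and 181 had 10 or more. Those 181 held 92.7% of the reads, the 10 most abundant held 49.7%, and Gm15459 alone held 21.5%.

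**Figure D1:**
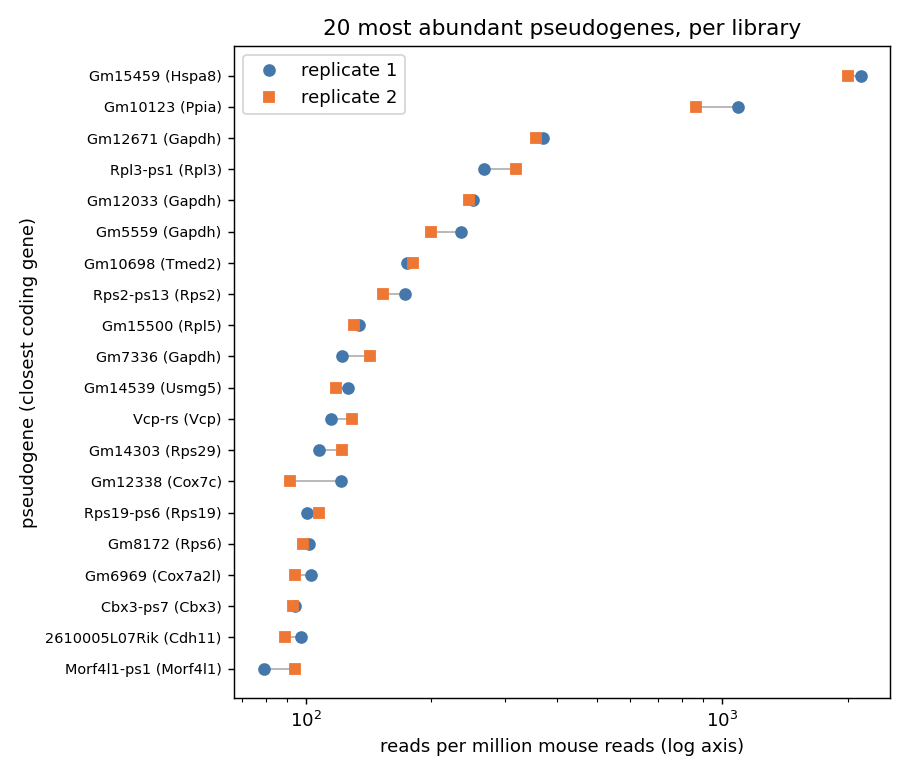
Level of the 20 most abundant pseudogenes in each library, as RPM on a log axis, with the closest coding gene in brackets; circles are replicate 1 and squares replicate 2. Gm15459 stands at 2149 and 2001 RPM, Gm10123 at 1092 and 865, and the other 18 lie between 79.3 and 371 RPM.

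Processed pseudogenes without the word transcribed held most of the reads, and the leading members copy a chaperone, a peptidyl-prolyl isomerase, a glycolytic enzyme and ribosomal proteins. Gm15459, a copy of the constitutive heat shock chaperone Hspa8 on chr5:5781615-5783555, had 2304 and 1508 reads in replicates 1 and 2 (mean 2075 ± 104 RPM, SD, n = 2). Its 1941 annotated bases cover the length of the Hspa8 coding sequence with 5 mismatches and no gap. Hspa8 itself had 2647 and 1651 reads, so the copy took 46.5% and 47.7% of the reads of the pair. The counts assigned to this copy and its coding gene were thus of the same size in both libraries. Within the aligned bases, a read that covers none of the 5 mismatches does not say which locus made it. How far the split reflects the levels of the 2 loci is therefore uncertain.

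Gm10123, on chr9:96895658-96896147, is identical over its 490 bases to Ppia, which encodes cyclophilin A. It had 1171 and 652 reads (979 ± 160 RPM), beside 1243 and 791 reads of Ppia. The copy was below its coding gene in both libraries by less than the difference between the libraries' own levels of the copy. Over the bases that an identical pair shares, a read's letters do not say which locus made it, so the split between such loci is uncertain.

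The copies of Gapdh, the glycolytic glyceraldehyde-3-phosphate dehydrogenase, were assigned nearly all reads of that family. Of 57 annotated pseudogenes with 95% or more identity to Gapdh over 80% or more of their length, 15 had a read, with 1152 and 774 reads in all. The annotated Gapdh gene on chromosome 6 had 16 reads in each library, 13 and 12 of them spliced. The copies were thus assigned 98.6% (Wilson interval 97.8 to 99.2) and 97.97% (96.7 to 98.7) of the family's reads. These intervals cover counting error only. Among copies identical or nearly identical to Gapdh, the locus that made a read is uncertain, so the shares do not measure how much the Gapdh gene itself was transcribed. Gapdh-ps15, on the Y chromosome, was assigned 2 and 3 reads although the mice were female. Gm12671 led with 398 and 269 reads (364 ± 10.0 RPM), followed by Gm12033 with 270 and 185 (249 ± 4.43 RPM) and Gm5559 on chromosome 5 with 252 and 150 (217 ± 25.4 RPM). Gm7336 had 131 and 107 reads and Gm13394 had 69 and 38. The reads were unevenly spread over near-identical copies: Gm10359, with no mismatch to Gapdh over 1002 bases, had 4 and 5 reads, while Gm12671, also with none, had 398 and 269. Apart from 1 spliced read of Gm5559 in replicate 2, the reads of the 5 leading copies were on single-exon models.

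By closest coding gene, 208 detected pseudogenes were matched to ribosomal protein genes, with 2326 (22.0% of pseudogene reads) and 1724 reads (24.2%). This grouping was made after values were seen and was not set against the annotated number in each group. Rpl3-ps1, a copy of the large subunit protein gene Rpl3 on chrX:13202571-13203780, had 286 and 241 reads (293 ± 37.6 RPM). Rps2-ps13, a copy of the small subunit gene Rps2 also on the X chromosome, had 185 and 115 reads (163 ± 14.1 RPM), above the 102 and 69 reads of Rps2. Rps19-ps6 had 108 and 81 reads beside 101 and 84 of Rps19, so which was higher changed between the libraries. By symbol alone, 63 of 294 pseudogenes named after a ribosomal parent and 66 of 1186 named after another parent had a read, with medians of 4.12 and 2.13 RPM among those detected.

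Other abundant processed members copy genes of membrane traffic, respiration, chromatin and protein handling. Gm10698, identical to the cargo receptor gene Tmed2, had 187 and 136 reads beside 246 and 187 of Tmed2. Gm14539 and Gm12338, identical to the ATP synthase-associated gene Usmg5 and the cytochrome oxidase subunit gene Cox7c, had 135 and 89 reads and 130 and 69 reads. Vcp-rs, a copy of the ATPase gene Vcp with 99.1% identity, had 123 and 97 reads beside 418 and 263. Cbx3-ps7, a copy of a heterochromatin protein gene, had 101 and 70 reads, and Morf4l1-ps1, a copy of a chromatin-associated gene, had 85 and 71. Each of these 6 was below its coding gene in both libraries.

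How alike a processed pseudogene was to a coding gene went with whether it was detected. Among processed and transcribed processed pseudogenes aligned over 80% or more of their length, 72 of 128 identical copies had a read (56.3%), as did 179 of 432 with 99% to under 100% identity (41.4%). The share was 13.6% of 448 from 98%, 5.73% of 1274 from 95%, 3.34% of 2003 from 90% and 2.30% of 3345 below 90%. Copies of 99% or more held 33.3% plus 56.0% of the reads of these types in replicate 1 and 31.2% plus 56.3% in replicate 2. Within those copies the share was larger at higher levels of the coding gene: 1 of 31 had a read where the coding gene had none, 7 of 65 below 10 RPM, 121 of 253 from 10 to under 100 RPM (47.8%) and 122 of 211 at 100 RPM or more (57.8%). These are descriptions across genes, which are not independent replicates.

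**Figure D2:**
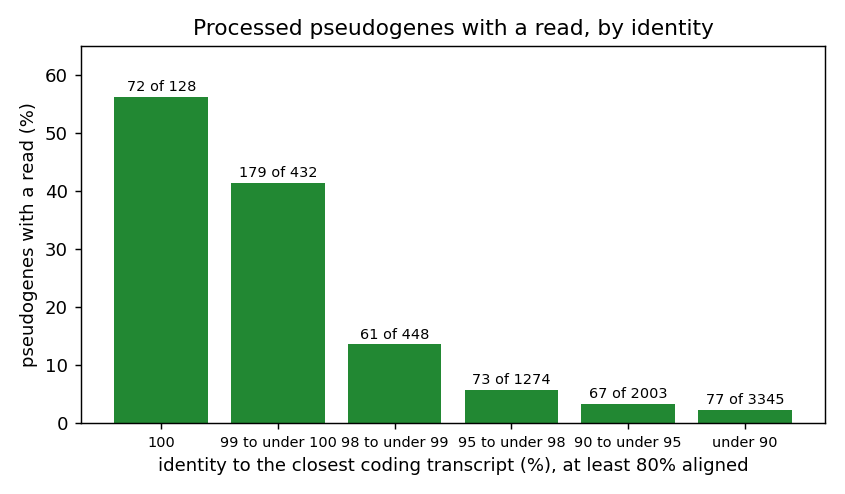
Share of annotated processed and transcribed processed pseudogenes with a read in either library (y axis, %), by identity to the closest coding transcript (x axis, % over at least 80% of the length); the counts stand above the bars. The share falls from 56.3% of identical copies to 2.30% of copies under 90% identity.

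Of the 154 processed and transcribed processed pseudogenes with 10 or more reads, 153 aligned to a coding gene, with a median identity of 99.7%. Of these, 39 were identical over their whole length and 117 had 99% or more identity over 80% or more. The coding gene was higher in both libraries for 129 pairs and the pseudogene for 19, and the median share of a pair's reads on the pseudogene was 17.1%. Apart from the Gapdh copies, pseudogenes above their coding gene included Gm15801, identical to the phosphatase gene Ptp4a1, with 63 and 40 reads beside 1 and 5. Rpl21-ps15 had 53 and 45 reads and Gm13370 had 48 and 40, beside 30 and 23 of Rpl21. Rpl17-ps5 had 61 and 35 beside 16 and 9 of Rpl17.

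**Figure D3:**
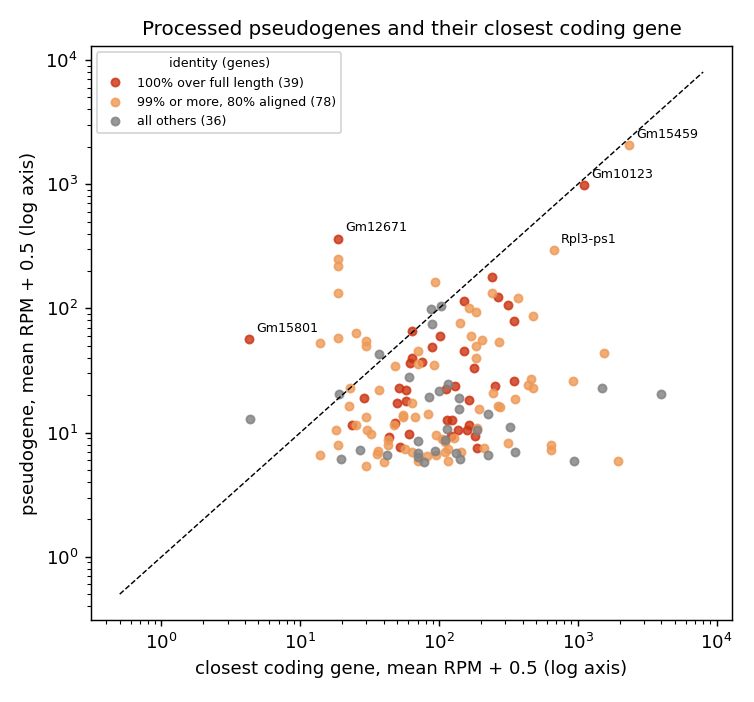
Mean level over both libraries of 153 processed and transcribed processed pseudogenes (y axis) against that of the closest coding gene (x axis), both as RPM + 0.5 on log axes; colours give identity and the dashed line marks equal levels. Most points lie below the line, and the copies of Gapdh, which share 1 x value, form a column above it with Gm12671 at the top (364 RPM).

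Spliced reads were rare among processed pseudogenes and prevailed in transcribed unprocessed ones. Over all pseudogenes, 94.1% (93.6 to 94.5) and 93.5% (92.9 to 94.0) of reads were on single-exon models (Fisher exact test between libraries, adjusted p = 0.146). The 552 processed pseudogenes with a read, of 9941 annotated, had 9287 and 6235 reads, 98.5% and 98.6% of them single-exon. The 62 transcribed processed ones of 296 had 628 and 428 reads, 87.7% and 82.9% single-exon. The 55 unprocessed of 2642 had 235 and 141 reads, 60.4% and 53.9% single-exon, and the 40 transcribed unprocessed of 253 had 339 and 249, 20.6% and 19.3% single-exon. Single-exon reads of unprocessed pseudogenes numbered 142 and 76. Nuclear copies of mitochondrial genes, described below, were assigned single-exon reads, 104 and 48 of the unprocessed reads, so the unprocessed share leans on them. The 9 transcribed unitary of 17 had 35 and 26 reads, 14.3% and 15.4% single-exon. For scale, 9.73% and 10.4% of reads of protein-coding genes and 53.7% and 57.0% of those of lincRNA genes were on single-exon models.

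**Figure D4:**
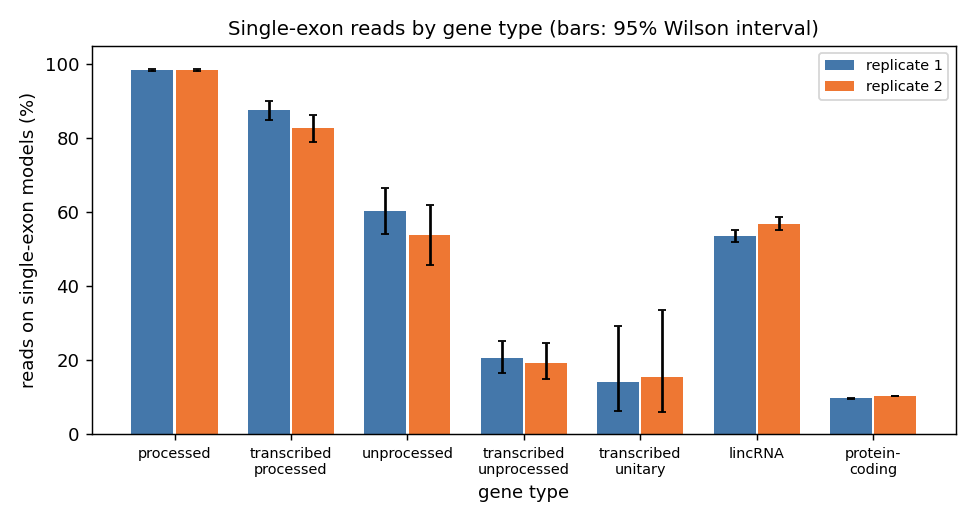
Share of reads on single-exon models (y axis, %) by gene type and library, with 95% Wilson intervals for counting error. Processed pseudogenes stand at 98.5% and 98.6%, transcribed unprocessed ones at 20.6% and 19.3%, and protein-coding genes at 9.73% and 10.4%.

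The annotation draws the types differently. A spliced annotated transcript exists for 9.58% of processed, 50.3% of transcribed processed, 47.5% of unprocessed and 91.3% of transcribed unprocessed pseudogenes, and for all 17 transcribed unitary ones. A read assigned to an annotated single-exon model takes that model's coordinates in the deposited files, so the ends of such reads were not examined. Annotated models held 93.6% and 93.3% of pseudogene reads, and models labelled Genomic 2.44% and 2.60%. Without the pseudogenes of 99% or more identity the single-exon share was 63.1% and 64.5%.

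Spliced pseudogene reads numbered 625 and 465, on 524 splice chains of 203 genes, of which 395 chains had a single read and 81, with 49.8% and 54.8% of the spliced reads, were seen in both libraries. Of the 139 chains of processed pseudogenes, 16 were seen in both. Not every chain touched the pseudogene itself: 77 of the 524, with 67 and 32 reads, overlapped no annotated pseudogene exon. Among processed pseudogenes these were 57 chains, with 46 and 22 of the 137 and 90 spliced reads (33.6% and 24.4%). Models labelled Genomic held 90 and 62 of the spliced reads of processed pseudogenes. The leading spliced members are duplicated stretches of a gene on chromosome 8.

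2610005L07Rik, a transcribed unprocessed gene at chr8:20385782-20424814, had 104 and 67 reads (92.9 ± 5.70 RPM), 94 and 59 of them spliced. Its closest coding gene was Cdh11, which encodes a cadherin, at 95.1% identity, with 45 and 32 reads. Its leading model, with 5 exons and introns of 1908 to 13862 bases, had 47 and 28 reads and is not in the annotation as a whole. Gm21811, annotated as unprocessed on the opposite strand at chr8:20136502-20151665, had 54 and 33 reads (47.1 ± 4.64 RPM), 48 and 27 spliced, and a leading model of the same number of exons with 25 and 14 reads. The similar Gm21092 had 17 and 17 reads and 6820431F20Rik had 6 and 14. The 5 detected pseudogenes of 95% or more identity to Cdh11 over 80% or more of their length had 177 and 119 reads. They held 79.7% (74.0 to 84.5) and 78.8% (71.6 to 84.6) of the reads of that family, which does not include every gene named in this paragraph.

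Ube2d-ps, a transcribed unprocessed relative of the ubiquitin-conjugating enzyme gene Ube2d3 at 74.9% identity, had 39 and 33 reads (40.1 ± 5.25 RPM), 37 and 31 of them spliced. Ube2d3 itself had 307 and 194 reads. Pisd-ps1, at 94.1% identity to the phosphatidylserine decarboxylase gene Pisd, had 37 and 21 reads (31.2 ± 4.69 RPM), 20 and 21 of them spliced. Gm19196, a partial copy of the transcription factor gene Taf1b at 96.0% identity, had 19 and 11 reads, 18 and 11 spliced.

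2 spliced members had little or no likeness to a coding gene, and their first splice junctions are printed with 30 bases on each side and the 10 bases next to the junction in capitals. The junction of 2810025M15Rik joins across chr1:157413126-157413743 and that of 1700086L19Rik across chr12:74284457-74285514, both on the plus strand.
2810025M15Rik: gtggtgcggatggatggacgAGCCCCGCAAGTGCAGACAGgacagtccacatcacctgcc
1700086L19Rik: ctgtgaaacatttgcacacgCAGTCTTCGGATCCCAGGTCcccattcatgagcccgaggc
2810025M15Rik, typed transcribed processed, had 18 and 24 reads (24.3 ± 10.7 RPM), all on its annotated model of 3 exons and 1194 bases. Its best alignment, to the ribosomal protein gene Rpl37a, covered 22.1% of it. 1700086L19Rik, the leading transcribed unitary gene, had 21 and 18 reads (21.7 ± 3.04 RPM), 21 and 16 of them on an annotated model of 4 exons, and no alignment to a coding gene. Both were seen in both libraries without an adjusted p under the threshold (0.552 and 1, exact binomial test).

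Among processed pseudogenes with spliced reads, Gm4118, a 91.9% relative of the proteasome gene Psma2, had 15 and 12 reads, of which 14 and 11 were on a model of 2 exons that joins 864 annotated bases to a further exon. That model is of the Genomic class, and without Genomic reads Gm4118 was at 0.990 and 1.41 RPM. Gm1821, a transcribed processed copy of the polyubiquitin gene Ubb, had 23 and 14 reads, 9 and 11 spliced, of which 5 and 6 were on a Genomic model. Ppp1ccb, a transcribed processed copy of the phosphatase gene Ppp1cc, had 64 and 45 reads, 6 and 10 spliced. The other leading transcribed processed members, Gm15500 (Rpl5, 144 and 98 reads), Rpl37rt (Rpl37, 81 and 56), Gm10175 (Atp5g2, 51 and 24) and Gm10275 (Rpl12, 26 and 14), had no spliced read.

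Unprocessed pseudogenes also include nuclear copies of mitochondrial DNA, which side by side on chromosome 1 were assigned single-exon reads. Gm10925 had 36 and 25 reads, beside 29 and 19 of the identical mt-Atp6, which encodes an ATP synthase subunit. Gm28437, identical to the cytochrome oxidase gene mt-Co3, had 31 and 10 reads beside 23 and 12. Gm28661 had 18 and 7 beside 9 and 5 of mt-Co2, and Gm29216, at 99.8% identity, had 17 and 5 beside 203 and 115 of mt-Co1. With 2 further copies of 1 or 2 reads, these loci were assigned 104 and 48 of the 235 and 141 reads of unprocessed pseudogenes. All are 99.7% or more identical to a mitochondrial gene, so the locus that made a read is uncertain. The counts thus do not measure how much the nuclear copies were transcribed.

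The remaining types had few reads. The 10 polymorphic pseudogenes detected of 82 had 17 and 16 reads, led by Hyi with 4 and 8. The 11 untyped ones of 61 had 29 and 29, led by Gm3608, a copy of the actin capping gene Capza1, with 12 and 12. All reads of the untyped pseudogenes were on Genomic models, so none had a read without that class. The 4 unitary ones of 24 had 5 reads, all in replicate 1, and 0 reads in replicate 2 allow up to 3.98 RPM. No immunoglobulin or T cell receptor pseudogene had a read.

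A larger share of detected than of all annotated pseudogenes lay inside another gene, a description with no test, and 1 locus held much of the reads there. The whole span lay within an annotated gene that is no pseudogene for 22.9% of 13525 annotated and 39.6% of 743 detected pseudogenes. Of the 294 detected, 60 lay on the strand of the host, 221 on the opposite strand and 13 within hosts of both strands. Processed pseudogenes were inside a host in 249 of 552 cases (45.1%), transcribed processed in 23 of 62, unprocessed in 8 of 55 and transcribed unprocessed in 4 of 40. Host location held 39.97% (39.0 to 40.9) and 41.0% (39.9 to 42.2) of pseudogene reads, and the libraries did not pass the Fisher exact test (adjusted p = 0.160). Gm15459 lies opposite the lincRNA gene Gm26825, overlapping its exon, and Gm26825 had no read in either library. Without Gm15459 the share was 23.2% and 25.2% (adjusted p = 0.0256), and with protein-coding hosts alone 15.9% and 17.3% (adjusted p = 0.0196).

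Inside hosts, 98.4% and 98.7% of reads were single-exon, and outside 91.2% and 89.8%. Of the 16 pseudogenes with 10 or more reads that lay within a host on its own strand without touching a host exon, 8 had more reads than the host in both libraries. Gm13394, the Gapdh copy, had 69 and 38, within Cfap77 with none. Morf4l1-ps1 had 85 and 71, within Lpp with 3 and 3, and Rps19-ps6 had 108 and 81, within Tecpr2 with 29 and 11. Gm15801 had 63 and 40 within Aldh18a1, which had 36 and 25. In these 4 the pseudogene was above its host in both libraries. On the opposite strand, Gm12338 had 130 and 69 reads where its host Pitpna had 592 and 318, whereas Gm8172, a copy of Rps6, had 109 and 74 where Aff2 had none.

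Between the libraries, 6 of the 181 pseudogenes with 10 or more reads passed the exact binomial test (3.31%; 0.882% of all 11339 genes tested were called). In replicate 2, 2 were higher (0.362% of all genes) and 4 lower (0.52% of all genes), and 24 of 181 had an unadjusted p under the threshold of 0.05, beside 975 of all 11339. The median log2 ratio, replicate 2 over replicate 1, was -0.0083 for the 181 and -0.0035 for all genes. Across these 181 genes Pearson's r of log2 RPM was 0.82, a description over genes that share both libraries.

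For 4 of the 6, neighbouring models on the same strand carried reads in the other library. Gm10774, a copy of the RNA polymerase subunit gene Polr2l inside the last exon of Usp50, had 72 and 1 reads (log2 ratio -5.09, adjusted p = 1.05e-12). A single-exon model given to Usp50 at chr2:126709096-126709354, which shares 1 base with Gm10774, had 0 and 40 reads. All models on that strand that touch Gm10774 summed to 72 and 41, a log2 ratio of -0.30. Oaz1-ps, a copy of the ornithine decarboxylase antizyme gene Oaz1, had 11 and 31 reads (log2 ratio 1.96, adjusted p = 0.00539). A model given to the lincRNA gene AC154200.1 at chr17:17345177-17345456, again sharing 1 base, had 43 and 0 reads, and the sums were 54 and 31 (log2 ratio -0.28). At both loci the summed reads no longer differed in the way the gene counts did.

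Gm49327 and Gm49329 are neighbouring transcribed unprocessed relatives of the calcium sensor gene Hpcal1 on chromosome 12, and their reads were all spliced. Gm49327 had 15 and 0 reads, at least 3.51-fold lower in replicate 2 against 3 reads there (adjusted p = 0.0439), and Gm49329 had 1 and 15 (log2 ratio 3.88, adjusted p = 0.00382). Together they had 16 and 15 reads, and whether the 2 calls come from how reads were named was not tested. The call of Gm49327 was lost with TMM scaling, DESeq2 size factors and no minimum of reads (adjusted p from 0.0710 to 0.0756). With models given to the gene they overlap most, Gm49327 had 13 and 6 reads (adjusted p = 0.993, exact binomial test) and Gm49329 had 1 and 3, too few to test. With annotated models alone Gm49327 had 1 and 0 reads and Gm49329 had none, and neither reached a minimum of 20 reads.

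Pgk1-rs7 and Gm10123 had no such neighbour. Pgk1-rs7, identical to the glycolytic gene Pgk1, had 120 and 34 reads (log2 ratio -1.30, adjusted p = 0.000244), while Pgk1 had 417 and 230 (log2 ratio -0.35, adjusted p = 0.157). Gm10123, with 1171 and 652 reads, was lower by a smaller ratio (log2 ratio -0.34, adjusted p = 0.000567), while Ppia had a log2 ratio of -0.14 (adjusted p = 0.495). In both pairs the coding gene's ratio had the same sign, and the difference between copy and coding gene was not tested. Of the coding genes that gave detected pseudogenes their names, 76 were tested and 0 were called by the exact binomial test, beside 0.882% of all genes, and 7 had an unadjusted p under 0.05, beside 975 of all 11339, with a median log2 ratio of -0.05.

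**Figure D5:**
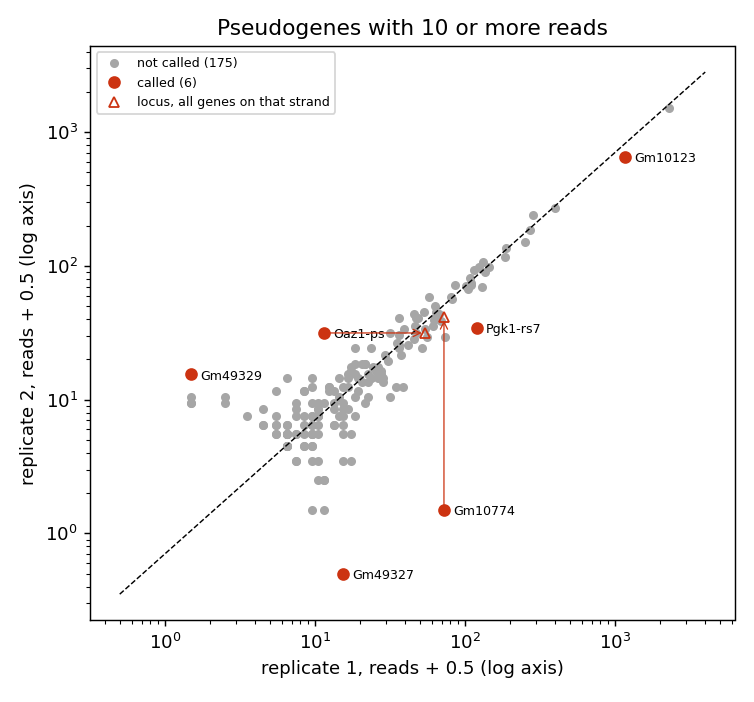
Reads + 0.5 of the 181 pseudogenes with 10 or more reads in replicate 1 (x) and replicate 2 (y), log axes; red points passed the test, the dashed line marks the ratio of the library totals, and triangles give the sum of all models on that strand at Gm10774 and Oaz1-ps. Arrows show the move from 72 and 1 to 72 and 41 reads at Gm10774, and from 11 and 31 to 54 and 31 at Oaz1-ps.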

How the data were processed

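The deposited tables hold raw counts of long reads per transcript model, 1 table per library, with the models' exons on mm10 and GENCODE M21, per the file headers; the models' source field names TALON. The aligner is not given in the sources used here. Read counts were summed per gene. Gene spans were rebuilt from annotated exons, since 16495 of 55536 deposited gene rows span other bases. ERCC reads (14936 and 8856) were left out; SIRV models were not analysed here.

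An exact binomial test, two-sided and given the mouse-read totals (scipy 1.17.1), was run on genes with 10 or more reads. Benjamini-Hochberg adjustment was over 11339 genes, with a threshold of 0.05, and log2 ratios had 0.5 reads added. The test was tried on simulated counts drawn with counting error alone, which cannot show how it behaves under other differences between libraries. Shares were compared by Fisher's exact test. The closest coding gene came from blastn 2.17.0 (word size 16, identity 70% or more, e-value 1e-10) against M21 coding transcripts, leaving out genes at the locus. Scaling alternatives used edgeR 4.0.16 and DESeq2 1.42.0.

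Genes were named by rank: the most abundant of each type, of spliced models, of host strands and of parent-named symbols, and all called ones; others were chosen after their values were seen. Members and lists were chosen with earlier results of these data known. Other settings and leaving out each library were tried.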

Additional observations from a re-analysis of the deposited data

How the results depend on the processing

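No paired analysis was possible because the study holds 1 group. Giving each model to the annotated gene it overlaps most called 3 pseudogenes instead of 6, turned Oaz1-ps (log2 ratio -0.28) and put the single-exon share past the threshold (93.7%, adjusted p = 0.0253). Leaving out pseudogenes of 99% or more identity, chosen after seeing the data, called 2, reversed the order of the libraries for the pseudogene share (mean 0.154%) and the single-exon share (63.8%), and put the host share past the threshold (29.8%), partly with fewer genes tested. Annotated models alone also reversed the pseudogene share (1.38%, adjusted p = 0.774). Without Gm15459 the pseudogene share missed the threshold (0.758%, adjusted p = 0.0699) and the host share passed it (24.2%), as with protein-coding hosts alone (16.6%). The causes were not tested. Leaving out either library gave 0.945% to 0.986%, 93.5% to 94.1%, 39.97% to 41.0% and, for the median level of the named pseudogenes, 31.9 to 34.0 RPM. All other settings run kept the direction and side of the threshold of these shares and a count of 4 to 6 called pseudogenes. Of 58 named levels, 46 moved beyond the SD with annotated models alone, 20 without Genomic reads, among them Gm4118 and Gm3608, and 2 by overlap. The first 2 of these settings also shrink the library totals, so levels rose where reads stayed the same. Gm10123 kept 1171 and 652 reads with annotated models alone, yet its mean went from 979 to 1492 RPM. The counts of moved levels thus do not count changed reads. Depth limits the 562 pseudogenes with under 10 reads, which entered the test only under no minimum of reads.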

Other observations

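Some pseudogenes carried reads on the opposite strand alone. Unannotated models antisense to pseudogene exons, and touching no other gene's exon on their strand, had 147 and 152 reads, of which 7 and 4 were spliced. Tmem181c-ps, an unprocessed relative of Tmem181a on chromosome 17, had 28 and 33 antisense reads beside 0 and 1 sense reads. The processed pseudogene Gm43582 had 13 and 18 antisense reads and no sense read. Gm21811 had 6 and 12 antisense reads beside 54 and 33 on its own strand. The files do not say whether the strand came from the library or from the alignment, so sense and antisense reads of single-exon models are uncertain.

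Of 810 annotated pseudogenes on the Y chromosome, 1 had reads although the mice were female: Gapdh-ps15, at 99.5% identity to Gapdh, had 2 and 3 reads. The genes Ddx3y, Uty, Kdm5d and Eif2s3y had no read in either library.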
